A study of Mus musculus with 11 samples.

Results

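The Slc25 genes encode the mitochondrial carriers, and here they were every gene whose symbol on the array starts with Slc25a, except Slc25a1, which was left out. They were 38 genes of the 16593 with a symbol and were read by 55 probes. A gene counted as above background when the detection p-value, the chance of so bright a signal from the array's negative controls, was under 0.05 in at least 5 of 10 mice. In all, 29 of the 38 genes passed (76.3%), against 56.1% of the 16593 genes.

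The RNA came from whole adrenals of 5 homozygous mINDY-KO mice and 5 WT littermates, all male, aged 12 to 16 weeks, fed standard chow and backcrossed to C57B/6J. The mINDY-KO mice carried the SLC13A5tm1.2Helf allele in every cell, made by crossing the SLC13A5tm1.1Helf allele to the Hprt1-Cre line 129S1-Hprttm1(Cre)Mnn, and were bred from heterozygous parents. The deleted gene, Slc13a5 (also called mIndy), encodes a plasma membrane citrate transporter, and the comparison asked how adrenal transcripts differed without it. Gene expression was read on 11 Illumina bead arrays, 1 for each mouse and a repeat of WT replicate 1, whose 2 arrays (r = 0.996) were averaged.

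Mitochondrial carriers are small proteins of the inner mitochondrial membrane that exchange nucleotides, phosphate, carboxylates, amino acids and cofactors between the matrix and the cytosol. They set how ADP reaches ATP synthase, how reducing equivalents cross the membrane in the malate-aspartate shuttle, and how fatty acids enter for oxidation. In the adrenal cortex the first and the last steps of steroid synthesis take place inside mitochondria and draw on these exchanges for fuel.

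The probe for Slc13a5 had a detection p under 0.05 in 0 of 5 mINDY-KO and 0 of 5 WT mice, so the arrays could not check the genotypes. Median signals were 122 to 238 in mINDY-KO and 150 to 202 on the WT arrays, with mINDY-KO replicates 4 and 3 the dimmest at 122 and 127, and 13260 to 13538 probes were detected on each array. All 7 cortical markers (such as Star and Cyp11a1) and all 7 measured chromaffin cell markers (such as Th and Dbh) were above background, as were 3 of 8 adipocyte markers and 0 of 5 skeletal muscle markers. In whole adrenals, fewer cells of a type and less RNA in each cell cannot be told apart. Levels below are log2 units above the mean of the array and differences are mINDY-KO minus WT. The level of a gene is that of its brightest probe above background, and levels of different genes are not compared, since probes differ in brightness for the same amount of RNA.

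All 29 genes above background were detected in 10 of 10 mice. Among the other 9 genes, Slc25a13 (citrin, an aspartate-glutamate carrier) was detected in 2 mINDY-KO and 2 WT mice, and its second probe in none. Slc25a46, an outer membrane protein of mitochondrial dynamics, was detected in 1 mINDY-KO and 2 WT mice, and Slc25a22, a glutamate carrier, in 1 mINDY-KO and 0 WT mice. The remaining 6 were detected in 0 of 10 mice. They were Slc25a21 (oxodicarboxylates), Slc25a31 (the testis form of the ADP/ATP carrier), Slc25a40 (a relative of the glutathione carrier), Slc25a41 (ATP-Mg/phosphate), Slc25a48 and Slc25a53. The gene just outside the limit of 5 mice was Slc25a13, with 4 mice, and every gene inside it had 10. Slc25a4, the ADP/ATP carrier of heart and muscle, and Slc25a37, the erythroid iron carrier, had no probe under these symbols, so they were not analysed here.

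**Figure D1:**
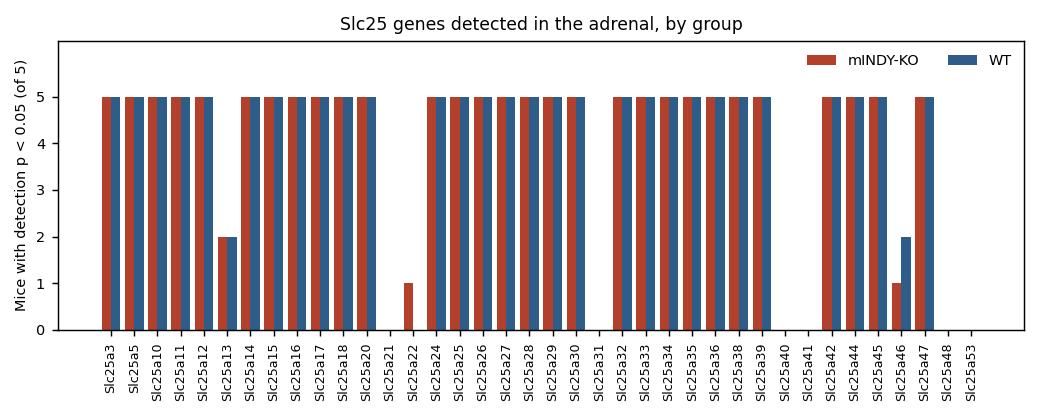
Number of mice, of 5 in each group, in which each of the 38 Slc25 genes had a detection p under 0.05, for mINDY-KO (red, left bars) and WT (blue, right bars), using the most often detected probe of each gene. The 29 genes above background reached 5 of 5 in both groups, 3 genes were detected in 1 to 4 mice and 6 in none.

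No Slc25 gene passed limma's test at an adjusted p of 0.05. The count was 0 of 29 higher and 0 of 29 lower in mINDY-KO, against 0.0108% of the 9302 genes tested in each direction. The smallest adjusted p of the family was 0.245. At an unadjusted p of 0.05, 0 of 29 genes were higher, against 4.33% of all genes, and 2 of 29 were lower (6.9%), against 7.01% of all genes, so both shares were no larger than the background. Groups that did not overlap were found for 0 of 29 genes in either direction, against 0.753% higher and 1.38% lower among all genes. The mean was higher in mINDY-KO for 14 genes and lower for 15, against 43.6% and 56.4% of all genes. By the criteria of the study's methods (a Z ratio over 1.5, an unadjusted p under 0.05 and a false discovery rate under 0.3), 0 of 29 genes were called, against 0.832% of probes.

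The differences ran from -0.40 to 0.18, with a median of -0.0036, against -0.019 over all genes. The median size of a difference, whatever its sign, was 0.067 for the carriers and 0.079 for all genes. For 26 of 29 genes (89.7%, against 95.3% of all genes) the whole 95% confidence interval lay within 0.5 log2 units of 0. The exceptions were Slc25a30, Slc25a25 and Slc25a36. The SD between mice of a group had a median of 0.15 over the family and 0.14 over all genes. It was smallest for Slc25a44 (0.069), a carrier of branched-chain amino acids, and largest for Slc25a25 (0.39). The mean over the 29 genes was 1.47 ± 0.032 in mINDY-KO and 1.49 ± 0.017 in WT mice (SD, n = 5 each).

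**Figure D2:**
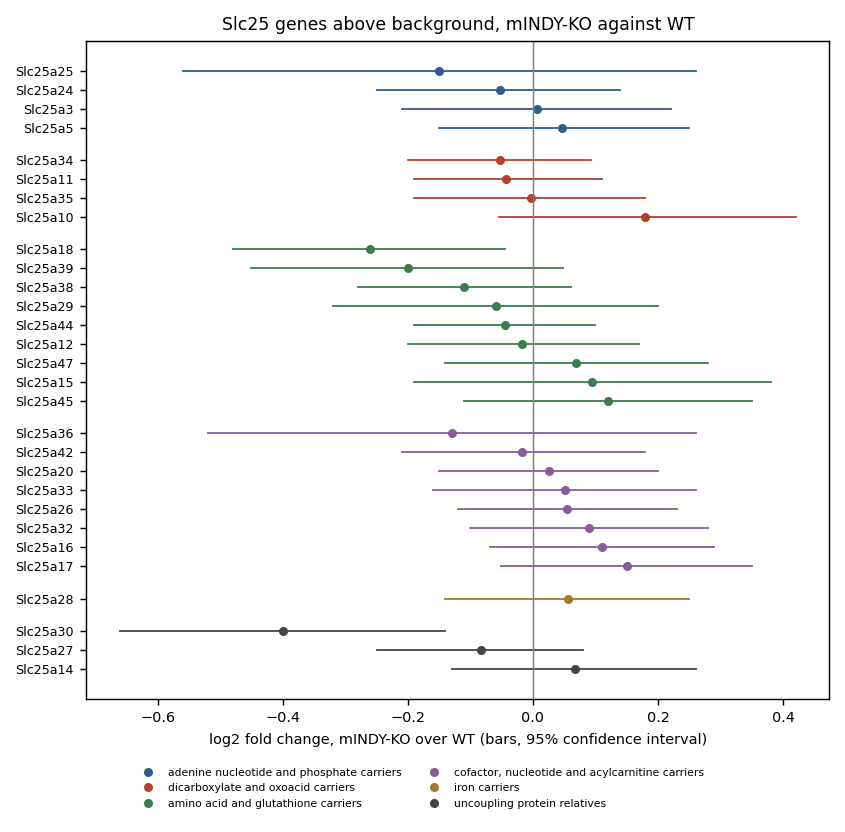
Difference between mINDY-KO and WT adrenals for the 29 Slc25 genes above background, as log2 fold change (points) with the 95% confidence interval of limma (bars), coloured by the carrier group assigned here. The intervals of Slc25a30 and Slc25a18 lie below 0 and the others cross it, and no gene passed the adjusted test.

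Slc25a30, a relative of the uncoupling proteins first described in kidney, showed the largest difference of the family. It had levels of 1.89, 1.60, 1.40, 1.34 and 1.81 in mINDY-KO mice 1 to 5, against 2.24, 2.13, 2.07, 1.82 and 1.76 in WT mice 1 to 5. All 5 mINDY-KO values lay under the WT mean and 3 lay under every WT value, but the groups overlapped. The means were 1.61 ± 0.24 in mINDY-KO and 2.01 ± 0.21 in WT (SD, n = 5 each). The difference was -0.40 (SE 0.12, 95% interval -0.66 to -0.14), a level 0.758 times that of WT, and it did not pass limma's test after adjustment (adjusted p = 0.245). Replicates 3 and 4, the dimmest arrays, were the 2 lowest mice. Without them the difference was -0.24 (limma adjusted p = 0.466) and no longer passed the unadjusted threshold of 0.05. The part of array brightness in this difference was not tested.

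The other uncoupling protein relatives were Slc25a14 (UCP5) and Slc25a27 (UCP4), both best known from brain. Slc25a27 had -0.85, -0.55, -0.73, -0.85 and -0.76 in mINDY-KO, against -0.56, -0.63, -0.64, -0.76 and -0.74 in WT mice. The mINDY-KO mice held both the highest value and the 2 lowest, and the difference was -0.083 (SE 0.076, limma adjusted p = 0.737). Its detection p reached 0.0451, close to the limit of 0.05, so the order of the mice rests on a signal near background. Slc25a14 differed by 0.067 (SE 0.09, limma adjusted p = 0.832), with overlapping groups. Ucp1 and Ucp3, uncoupling proteins of brown fat and muscle, were not above background.

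The phosphate carrier Slc25a3 and the ADP/ATP carrier Slc25a5 supply ATP synthase with its substrates. The brighter probe of Slc25a3 read 4.94, 4.59, 5.13, 5.20 and 4.88 in mINDY-KO mice, against 4.99, 4.98, 4.94, 4.88 and 4.92 in WT mice. The mINDY-KO values spread on both sides of the narrow WT range, with 2 above every WT value and 2 below. The difference was 0.0061 (SE 0.10, limma adjusted p = 0.99), and it was -0.14 without mINDY-KO replicates 3 and 4.

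Slc25a5 had 4.52, 4.49, 4.94, 4.93 and 4.71 in mINDY-KO, against 4.72, 4.68, 4.62, 4.64 and 4.69 in WT mice. Replicates 3 and 4 stood above every WT mouse, as for the brighter probe of Slc25a3, and replicates 1 and 2 below every WT mouse. The difference was 0.047 (SE 0.093, limma adjusted p = 0.895), and it was -0.10 without replicates 3 and 4. With quantile normalization it was -0.029 for Slc25a5 and -0.065 for Slc25a3, so no direction held for either.

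A second, dimmer probe of Slc25a3 read 2.25, 2.30, 2.12, 2.18 and 2.23 in mINDY-KO, against 2.37, 2.68, 2.30, 2.38 and 2.47 in WT mice. Here 4 of 5 mINDY-KO mice lay under every WT mouse and the fifth level with the lowest. The difference was -0.22 (SE 0.079, limma adjusted p = 0.325), past the threshold of 0.05 only before adjustment. Without mINDY-KO replicates 3 and 4 it was -0.18 (limma adjusted p = 0.488) and missed the unadjusted threshold too. The change between genotypes in the dimmer probe minus that in the brighter probe was -0.23. It did not pass a two-sided exact permutation test over the 252 assignments of mice (p = 0.151, adjusted p = 0.913 over the 8 probe pairs of the family, smallest possible p 0.00794). This comparison was chosen after the values of the probes were seen. The other 7 pairs, in Slc25a11, Slc25a15, Slc25a20, Slc25a24 and Slc25a38, differed between probes by -0.083 to 0.12.

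**Figure D3:**
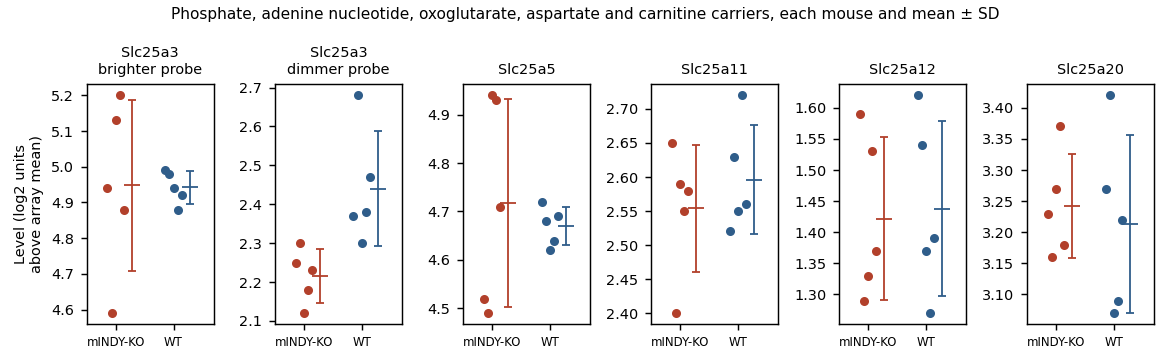
Levels in log2 units above the array mean of both probes of the phosphate carrier Slc25a3, and of the ADP/ATP carrier Slc25a5, the oxoglutarate carrier Slc25a11, the aspartate-glutamate carrier Slc25a12 and the carnitine carrier Slc25a20, in each mINDY-KO (red) and WT (blue) mouse with the mean and SD (n = 5 each). The vertical axes differ between panels. The mINDY-KO values of Slc25a3 (brighter probe) and Slc25a5 lie on both sides of the WT values.

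The ATP-Mg/phosphate carriers Slc25a24 and Slc25a25 adjust the adenine nucleotide pool of the matrix in response to calcium. Slc25a25 varied most, with 0.72 to 1.73 in mINDY-KO (median 1.51), against 1.11 to 2.02 in WT mice (median 1.56). The difference of -0.15 had an interval of -0.56 to 0.26, so these mice did not fix its direction. Slc25a24 differed by -0.053 (SE 0.09, limma adjusted p = 0.874).

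By the brightest probe of each gene, mINDY-KO replicates 3 and 4 were the 2 highest of the 10 mice for 3 genes of the family. These were Slc25a3, Slc25a5 and Slc25a28 (mitoferrin-2, an iron importer). Replicates 3 and 4 were the 2 lowest mice for Slc25a30 and Slc25a35. The shares, 10.3% and 6.9% of the family, compare with 5.92% and 10.7% of all genes. On the dimmer probe of Slc25a3, replicates 3 and 4 were instead the 2 lowest of the 10 mice, at 2.12 and 2.18. Slc25a28 had 3.10, 3.25, 3.49, 3.49 and 3.25 in mINDY-KO mice, against 3.47, 3.22, 3.17, 3.15 and 3.27 in WT mice, a difference of 0.056 that was -0.06 without replicates 3 and 4. The mean of 34 respiratory chain genes was 4.22 and 4.24 in these 2 mice, 3.87 to 3.90 in the other mINDY-KO mice and 3.79 to 3.94 in WT mice. Replicates 3 and 4 were the 2 highest mice for 22 of these 34 genes (64.7%). Without them, 14 of the 34 genes had the higher mean in mINDY-KO, in place of 31 (43.6% of all genes with all mice). Their median difference was then -0.032, in place of 0.11. Whether the brightness of these 2 arrays plays a part was not tested.

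**Figure D4:**
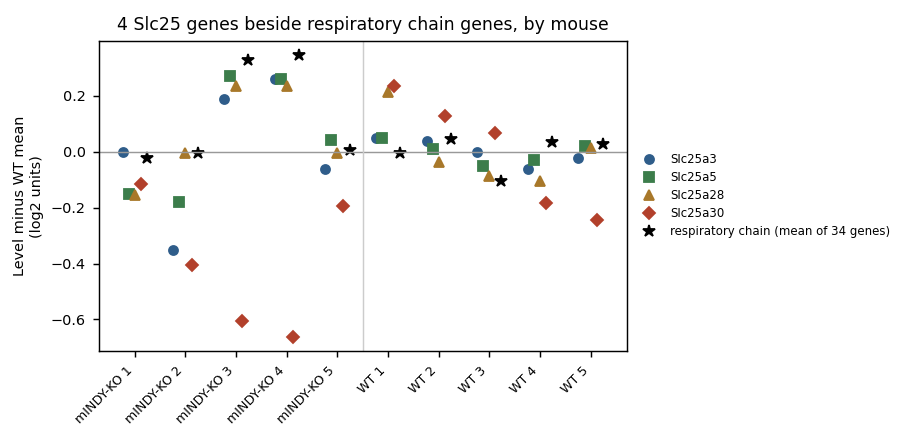
Level of Slc25a3 (brighter probe), Slc25a5, Slc25a28 and Slc25a30 and the mean of 34 respiratory chain genes in each of the 10 mice, as log2 units minus the WT mean, with mINDY-KO mice left of the line and WT mice right of it. In mINDY-KO replicates 3 and 4 the first 3 genes and the respiratory chain mean lie above their values in the other mINDY-KO mice, and Slc25a30 lies below.

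The RefSeq promoter table (GRCm38.p6) held 31 of the 38 genes. The 250 bases before the start site of Slc25a30, Slc25a3 and Slc25a5 are shown 5′ to 3′ on the strand of the gene. Slc25a30 had the largest difference, and the brightest probes of Slc25a3 and Slc25a5 read high in mINDY-KO replicates 3 and 4. Capitals mark matches on either strand to TGCGCANGC, the core of the motif of the nuclear respiratory factor NRF1, or to CCGGAAG, that of the ETS factor GABP, which both regulate many nuclear genes of mitochondria. The windows are chr14:75787038-75787287 on the minus strand for Slc25a30, chr10:91123968-91124217 on the minus strand for Slc25a3 and chrX:36795347-36795596 on the plus strand for Slc25a5.
Slc25a30: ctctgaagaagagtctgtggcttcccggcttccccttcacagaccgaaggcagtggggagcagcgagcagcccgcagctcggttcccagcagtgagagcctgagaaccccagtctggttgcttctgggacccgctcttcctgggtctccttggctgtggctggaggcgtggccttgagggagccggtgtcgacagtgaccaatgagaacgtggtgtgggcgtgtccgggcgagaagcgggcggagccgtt
Slc25a3: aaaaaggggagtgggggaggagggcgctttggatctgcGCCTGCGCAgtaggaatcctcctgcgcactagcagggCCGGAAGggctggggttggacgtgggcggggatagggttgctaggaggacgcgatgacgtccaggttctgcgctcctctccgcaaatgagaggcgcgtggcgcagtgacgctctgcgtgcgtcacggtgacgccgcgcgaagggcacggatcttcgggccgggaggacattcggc
Slc25a5: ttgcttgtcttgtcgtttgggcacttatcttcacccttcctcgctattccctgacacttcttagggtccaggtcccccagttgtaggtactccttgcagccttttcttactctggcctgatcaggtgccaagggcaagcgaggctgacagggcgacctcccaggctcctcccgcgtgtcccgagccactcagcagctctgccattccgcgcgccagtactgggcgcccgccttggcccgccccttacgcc
The Slc25a3 window held a match to each motif and the other 2 windows shown held none. The NRF1 motif was in windows of 2 of 31 Slc25 genes, against 3.95% of 27025 genes, and the GABP motif in 4 of 31 (Slc25a3, Slc25a17, Slc25a20 and Slc25a38), against 7.83% of genes. Of the other motifs searched on both strands, TGACGTCA, the cAMP response element, was in 2 of 31 (Slc25a25 and Slc25a36), against 1.77% of genes, and TCAAGGTCA, that of the estrogen-related receptors, was in 0 of 31, against 0.422%. A match is a run of letters and does not show that a factor binds there.

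Slc25a18, a carrier that takes glutamate into mitochondria, had -0.22, -0.15, -0.66, -0.51 and -0.56 in mINDY-KO, against -0.07, -0.11, -0.05, -0.31 and -0.25 in WT mice. Replicates 3, 4 and 5 of mINDY-KO lay under every WT mouse and the other 2 among them. The means were -0.42 ± 0.22 in mINDY-KO and -0.16 ± 0.12 in WT (SD, n = 5 each). The difference of -0.26 (SE 0.10, 95% interval -0.48 to -0.044) did not pass limma's test after adjustment (adjusted p = 0.379). It was -0.52 after background correction with neqc, and -0.15 without mINDY-KO replicates 3 and 4 (limma adjusted p = 0.603). It passed the unadjusted threshold of 0.05 neither then nor without replicate 3 alone (-0.20, limma adjusted p = 0.615) or replicate 5 alone (-0.23, limma adjusted p = 0.484).

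Above background were 9 genes grouped here as amino acid and glutathione carriers, a grouping that does not settle the substrate of each. Of these, 3 had the higher mean in mINDY-KO and 6 the lower (43.6% and 56.4% of all genes), with a median difference of -0.044. Slc25a39, which imports glutathione, had 3.0, 2.52, 2.94, 3.07 and 2.74 in mINDY-KO, against 3.23, 3.19, 2.72, 3.03 and 3.09 in WT mice. In 4 of 5 mINDY-KO mice it lay under the WT mean, and replicate 2 was the lowest mouse. The difference was -0.20 (SE 0.12, limma adjusted p = 0.567), and it was -0.30 without replicates 3 and 4 (limma adjusted p = 0.423). It passed the unadjusted threshold of 0.05 in that setting, with array quality weights (-0.25) and without WT replicate 3 (-0.28), but not with all mice weighted equally.

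Slc25a38, which brings glycine into mitochondria for heme synthesis, had 2.84, 3.05, 3.24, 3.16 and 3.19 in mINDY-KO, against 3.27, 3.15, 3.23, 3.19 and 3.18 in WT mice. Replicates 1 and 2 of mINDY-KO were under every WT mouse. Its 3 probes differed between genotypes by -0.11, -0.10 and -0.057 (limma adjusted p = 0.66, 0.688 and 0.874). Slc25a45, a carrier of this branch, had 2.42, 1.95, 2.29, 2.05 and 2.17 in mINDY-KO, against 2.31, 1.79, 2.00, 2.19 and 1.98 in WT mice, a difference of 0.12 (SE 0.11, limma adjusted p = 0.723) in overlapping groups.

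The aspartate-glutamate carrier Slc25a12 (aralar) drives the malate-aspartate shuttle together with the oxoglutarate carrier Slc25a11. Slc25a12 had 1.59, 1.29, 1.33, 1.53 and 1.37 in mINDY-KO, against 1.62, 1.54, 1.37, 1.27 and 1.39 in WT mice. The ranges nearly coincided and the difference was -0.017 (SE 0.086, 95% interval -0.20 to 0.17), of the other sign (0.018) with quantile normalization. The remaining genes of this group, Slc25a15 (ornithine), Slc25a29 (basic amino acids), Slc25a44 and Slc25a47, differed by -0.059 to 0.095, with adjusted p of 0.845 to 0.902 in limma.

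Slc25a11 had 2.65, 2.40, 2.59, 2.55 and 2.58 in mINDY-KO, against 2.52, 2.63, 2.55, 2.72 and 2.56 in WT mice. It differed by -0.043 (SE 0.07, 95% interval -0.19 to 0.11), and by -0.0063 and 0.077 with its other probes. The dicarboxylate carrier Slc25a10 exchanges malate or succinate for phosphate. It had 2.18, 1.67, 2.24, 1.97 and 2.03 in mINDY-KO, against 2.07, 1.95, 1.71, 1.80 and 1.65 in WT mice. In 4 of 5 mINDY-KO mice it was above the WT mean, while replicate 2 lay near the lowest WT mouse. The difference of 0.18, the largest positive one of the family, had an interval of -0.054 to 0.42 (SE 0.11, limma adjusted p = 0.586), and was 0.27 without replicate 2 (limma adjusted p = 0.355) and 0.24 without WT replicate 1 (limma adjusted p = 0.63), passing the unadjusted threshold of 0.05 in both settings. Slc25a34 and Slc25a35, whose substrates are less settled, differed by -0.052 and -0.0036.

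Of the 4 enzymes of the malate-aspartate shuttle, all had the higher mean in mINDY-KO (43.6% of all genes) and 0 passed the adjusted test. Cytosolic malate dehydrogenase Mdh1 had 1.80, 1.64, 1.67, 1.20 and 1.95 in mINDY-KO, against 1.04, 1.32, 1.21, 1.45 and 1.53 in WT mice. In 4 of 5 mINDY-KO mice it was above every WT mouse. The difference was 0.34 (SE 0.13, limma adjusted p = 0.363), past the threshold of 0.05 only before adjustment. The others, Got1, Mdh2 and Got2, differed by 0.13, 0.10 and 0.01. Without replicates 3 and 4 the differences were 0.48 for Mdh1, 0.21 for Got1, 0.079 for Mdh2 and -0.12 for Got2, of which Mdh1 passed the unadjusted threshold.

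All 8 carriers of cofactors, nucleotides and acylcarnitines with a probe were above background. In mINDY-KO, 6 had the higher mean and 2 the lower (43.6% and 56.4% of all genes), with a median difference of 0.053. The carnitine-acylcarnitine carrier Slc25a20 admits long-chain acyl groups for oxidation. It had 3.23, 3.16, 3.27, 3.37 and 3.18 in mINDY-KO, against 3.27, 3.42, 3.07, 3.09 and 3.22 in WT mice, with the mINDY-KO values all inside the WT range. The difference was 0.026 (SE 0.08, 95% interval -0.15 to 0.20).

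The peroxisomal carrier Slc25a17 moves CoA, NAD and FAD. It had 2.34, 2.40, 2.22, 2.11 and 2.28 in mINDY-KO, against 1.96, 1.87, 2.29, 2.20 and 2.28 in WT mice, and mINDY-KO replicates 1 and 2 exceeded the whole WT range. The difference was 0.15 (SE 0.095, limma adjusted p = 0.602).

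Slc25a16, linked to mitochondrial CoA, had 1.84, 1.86, 1.59, 1.63 and 1.86 in mINDY-KO, against 1.65, 1.45, 1.66, 1.66 and 1.79 in WT mice. Replicates 1, 2 and 5 of mINDY-KO lay above every WT mouse. The difference was 0.11 (SE 0.084, limma adjusted p = 0.675), and 0.21 without replicates 3 and 4 (limma adjusted p = 0.406), where it passed the unadjusted threshold of 0.05.

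Slc25a32, which imports folate or FAD, had -0.08, -0.36, -0.52, -0.48 and -0.45 in mINDY-KO, against -0.55, -0.48, -0.33, -0.48 and -0.50 in WT mice. Replicate 1 of mINDY-KO stood above the other 9 mice. The difference was 0.09 (SE 0.087, limma adjusted p = 0.755). Slc25a26 (S-adenosylmethionine), Slc25a33 and Slc25a36 (pyrimidine nucleotides) and Slc25a42 (CoA) differed by -0.13 to 0.055. Slc25a36 was the second most variable gene of the family, with 0.81 to 1.62 in mINDY-KO (median 1.53), against 1.18 to 2.07 in WT mice (median 1.22), so that its mean was lower in mINDY-KO while its median was higher.

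**Figure D5:**
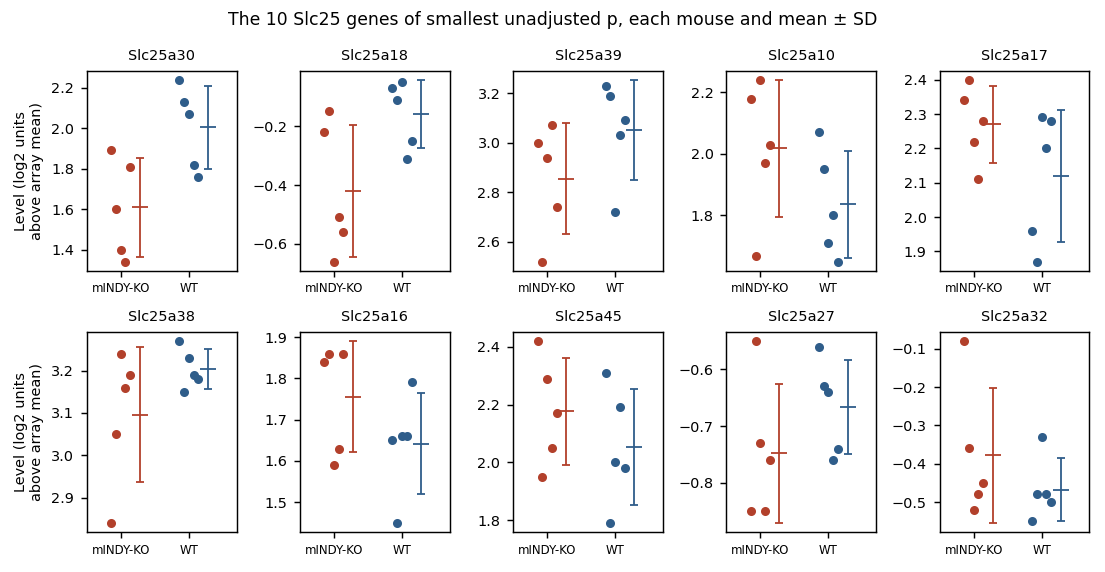
Levels in log2 units above the array mean of the 10 Slc25 genes of smallest unadjusted p, in each mINDY-KO (red) and WT (blue) mouse with the mean and SD (n = 5 each). The vertical axes differ between panels, and in all 10 panels the groups overlap.

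Mtch1 and Mtch2 belong to the family by sequence but lie in the outer membrane, where MTCH2 inserts other proteins. Mtch2 had 2.52, 2.78, 2.76, 2.22 and 2.83 in mINDY-KO, against 1.75, 1.99, 2.81, 2.57 and 2.15 in WT mice, with a difference of 0.37 (SE 0.18, 95% interval -0.0083 to 0.74, limma adjusted p = 0.469). The ranges overlapped, with 3 WT mice under every mINDY-KO mouse. Mtch1 differed by 0.075 (limma adjusted p = 0.813). Leaving out mINDY-KO replicates 3 and 4 gave differences of 0.46 for Mtch2 and -0.073 for Mtch1. Mtch2 then passed the unadjusted threshold of 0.05, which it missed with all mice, and Mtch1 passed it in neither setting. The outer membrane channels Vdac3, Vdac1 and Vdac2, through which carrier substrates pass, differed by 0.23, -0.12 and -0.019, with adjusted p of 0.501 to 0.964 in limma.

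Carriers reach the inner membrane through the TOM complex, small TIM chaperones and the TIM22 complex. Of 14 such genes with a probe, 11 were above background. Of these 11, 9 had the higher mean in mINDY-KO (43.6% of all genes) and 0 passed the test, even unadjusted (median difference 0.017). The smallest p belonged to the chaperone genes Timm8b, Timm8a1 and Timm10, which differed by 0.14, 0.09 and 0.11 (limma adjusted p = 0.596, 0.699 and 0.745). Of 6 enzymes of the glycerol phosphate and carnitine shuttles, 5 had the lower mean in mINDY-KO (56.4% of all genes) and 0 passed either test. Among them, the differences were 0.13 for Cpt1b, -0.15 for Gpd1 and -0.14 for Gpd2. In the respiratory chain, 7 of 34 genes were higher at an unadjusted p of 0.05 (4.33% of all genes) and 0 after adjustment. Those of smallest p were Ndufb5, a complex I subunit, with 0.39, Cox5a, of complex IV, with 0.30, and Uqcrh, of complex III, with 0.28 (limma adjusted p = 0.157, 0.27 and 0.309). Without replicates 3 and 4, at an unadjusted p of 0.05, 2 of the 34 genes were higher (6.06% of all genes) and 1 was lower (5.28%). Ndufb5 then differed by 0.34 and still passed that threshold, whereas Cox5a, with 0.19, and Uqcrh, with 0.14, did not.

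Among markers of other cells, adiponectin (Adipoq) differed by 0.70 (limma adjusted p = 0.348), past the threshold of 0.05 only before adjustment. Without mINDY-KO replicates 3 and 4 the difference was 0.97, which also passed that threshold before adjustment. Adipoq read 1.16 in mINDY-KO replicate 5, -0.65 to -0.03 in the other mINDY-KO mice and -0.92 to -0.04 in WT mice. The other adipocyte markers above background, Lep and Plin1, differed by 0.052 and 0.033 (limma adjusted p = 0.86 and 0.946). The mean of the 3 adipocyte markers above background ran from -0.53 to 0.41 in mINDY-KO and from -0.56 to -0.17 in WT mice. Cidea, Cidec, Fabp4, Retn and Ucp1 were not above background. All 4 macrophage markers had the higher mean in mINDY-KO, against 43.6% of all genes. Their list means were 1.73 to 2.27 in mINDY-KO and 1.42 to 2.10 in WT mice. The 7 chromaffin cell markers averaged 3.60 to 4.21 in mINDY-KO and 3.81 to 4.39 in WT mice. Of these, 6 had the lower mean in mINDY-KO, against 56.4% of all genes. Only Scg2 (-0.24, limma adjusted p = 0.453) was lower at an unadjusted p of 0.05, against 7.01% of all genes. Without replicates 3 and 4, all 7 had the lower mean, with a median difference of -0.18. In that setting 2 of the 7 were lower at an unadjusted p of 0.05, against 5.28% of all genes. Of the macrophage markers, 3 then had the higher mean and 1 the lower, with a median difference of 0.29, in place of 0.22. Among these 4, 1 was then higher at an unadjusted p of 0.05 (6.06% of all genes), in place of 0. The cortical markers averaged 3.68 to 4.07 in mINDY-KO and 3.76 to 3.87 in WT mice, with replicates 3 and 4 again the 2 highest. At an unadjusted p of 0.05, 2 of the 7 were higher, against 4.33% of all genes. They were Mc2r (0.22, limma adjusted p = 0.421) and Hsd3b1 (0.25, limma adjusted p = 0.43), where replicates 3 and 4 were not the 2 highest. Without replicates 3 and 4, 2 of the 7 cortical markers had the higher mean in mINDY-KO, in place of 5 (43.6% of all genes with all mice). In that setting 1 was higher at an unadjusted p of 0.05, against 6.06% of all genes. The part of cell composition in the carrier values was not tested.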

How the data were processed

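Adrenal RNA of 5 mINDY-KO and 5 WT mice was measured on 11 bead arrays. The authors deposited probe signals, as linear intensity from GenomeStudio (version 2011.1 per the submitters' processing notes), with a deposited detection p-value for each, without normalization across arrays, and a table of deposited Z scores. The deposited Z scores matched log10 signals centred and scaled within each array, within 0.0102, and no sample column was left unused. Genome build and probe sequences are not given in the sources used here.

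Here log10 signals were Z-scored within arrays and then scaled to log2 units by 1.57, the average SD of log2 signals over arrays. Of 25697 probes, 13341 had detection p under 0.05 in at least 5 mice. Symbols came from the platform annotation. Genotypes were compared with limma (version 3.58.1, R 4.3.3, two-sided, Benjamini-Hochberg adjustment over kept probes), tested on simulated data. The array number limits precision. Mice are taken as separate animals, as labelled. The members and lists were chosen with earlier results of these data known. Named in full were the Slc25 genes of smallest p, filled to 10, and up to 3 genes of each other list. Of 8 main carriers chosen whatever their p, those above background were also named in full. Figures were drawn with matplotlib (version 3.10.9). Slide and scan are not given in the sources used here.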

Additional observations from a re-analysis of the deposited data

How the results depend on the processing

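No Slc25 gene passed an adjusted p of 0.05 under any of 22 alternatives (lowest limma adjusted p 0.197). At an unadjusted p of 0.05, without mINDY-KO replicates 3 and 4, 1 gene was higher (Slc25a16, against 6.06% of all genes) and 1 lower (Slc25a39, against 5.28%). When single mice were left out, 0 to 1 were higher (Slc25a10, without mINDY-KO replicate 2 or WT replicate 1), against 3.12% to 4.87% of all genes, and 1 to 3 lower, against 4.95% to 7.91%. The count of 3, with Slc25a39 added, came without WT replicate 3 and also with array quality weights (7.46% of all genes). The deviations of same-numbered mice from their group means had correlations of -0.304 to -0.108, all negative. This does not settle whether the numbers pair mice, since litter and processing order are not in the labels. With the replicate block the counts stayed at 0 higher (3.57% of all genes) and 2 lower (6.9%, against 5.56% of all genes), with a smallest adjusted p of 0.343. With detection p under 0.01, 27 genes were above background, and Slc25a27 and Slc25a34 dropped out.

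Of 29 genes, 15 kept their sign throughout, Slc25a30 (-0.47 to -0.24) and Slc25a18 among them. The others had main differences of at most 0.15, and the cause of a change in sign was not tested. Without mINDY-KO replicates 3 and 4 the differences were -0.025 for Slc25a20, 0.053 for Slc25a24, -0.06 for Slc25a28, 0.06 for Slc25a29, -0.14 for Slc25a3, 0.11 for Slc25a35, 0.09 for Slc25a36, -0.015 for Slc25a47 and -0.10 for Slc25a5. With neqc and quantile normalization they were 0.022 and 0.018 for Slc25a12, -0.065 and -0.065 for Slc25a3, 0.029 and 0.016 for Slc25a35, 0.029 and 0.013 for Slc25a42, and -0.03 and -0.029 for Slc25a5. With array quality weights they were -0.0026 for Slc25a20 and -0.018 for Slc25a3, with all kept probes averaged 0.0092 for Slc25a11 and -0.11 for Slc25a3, and with the first array of WT replicate 1 alone 0.017 for Slc25a35. Leaving out single mice gave ranges across 0 of -0.059 to 0.028 for Slc25a12, -0.01 to 0.078 for Slc25a20, -0.10 to 0.019 for Slc25a24, -0.25 to 0.015 for Slc25a25, -0.057 to 0.095 for Slc25a3, -0.0094 to 0.13 for Slc25a33, -0.051 to 0.058 for Slc25a35, -0.20 to 0.023 for Slc25a36, -0.091 to 0.045 for Slc25a42 and -0.0081 to 0.10 for Slc25a5.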
